A study of Mus musculus with 9 samples.

Results

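The gamma crystallin family of the mouse lens was examined through its 8 genes Cryga, Crygb, Crygc, Crygd, Cryge, Crygf, Crygn and Crygs, matched by symbol in the deposited gene tables. All 8 were among the 7676 genes listed for inbred wild type lenses. Of the 190 genes listed for the mixed wild type and conditional knockout lenses, 1 was a member, Crygs. The other 7 members were not analysed here in those groups. RNA of whole lenses at 15.5 days post conception was sequenced in 3 groups of 3 libraries, each made from 30 pooled lenses. The inbred wild type lenses came from the strain C57Bl/6<har>. The mixed wild type lenses, on a mixed background, were Sip1 flox/flox with no Cre. The conditional knockout (cKO) lenses, also of mixed background, were Sip1 flox/flox and carried MLR10Cre, so these latter groups share the floxed alleles and differ in the transgene. Sip1 is the product of Zeb2, a zinc finger repressor, and MLR10Cre places Cre recombinase under a modified alpha A-crystallin promoter that is active in lens cells.

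Gamma crystallins are small, densely packed structural proteins of the beta/gamma superfamily. They are made in lens fibre cells, where their high concentration gives the lens its refractive power, and mutations in them cause cataract. Cryga to Crygf lie near each other on chromosome 1 and are switched on as fibre cells differentiate. Crygs, on chromosome 16, encodes gamma S-crystallin, which becomes prominent later, in the cortical fibres of the postnatal lens. Crygn, on chromosome 5, encodes gamma N-crystallin, whose sequence stands between those of the beta and gamma crystallins.

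The near promoters of the family are shown because the clustered genes carry a word in common that Crygn and Crygs lack. Each line holds the 100 bases before the transcription start, read 5′ to 3′ along the gene from RefSeq (GRCm38.p6). Capitals mark the shared word TTTGTG, the AT-rich word TATATA near the start and, in Crygs alone, the TATA box word TATAAA.
Cryga: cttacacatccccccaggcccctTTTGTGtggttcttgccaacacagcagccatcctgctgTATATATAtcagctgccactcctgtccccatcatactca
Crygb: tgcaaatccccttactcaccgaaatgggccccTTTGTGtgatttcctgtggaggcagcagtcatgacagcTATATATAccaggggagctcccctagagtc
Crygc: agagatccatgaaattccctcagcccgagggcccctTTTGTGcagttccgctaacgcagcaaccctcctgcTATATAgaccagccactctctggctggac
Crygd: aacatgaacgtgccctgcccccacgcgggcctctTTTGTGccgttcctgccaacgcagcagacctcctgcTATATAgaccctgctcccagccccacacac
Cryge: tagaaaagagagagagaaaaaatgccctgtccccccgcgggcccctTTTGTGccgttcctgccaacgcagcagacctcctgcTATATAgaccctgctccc
Crygf: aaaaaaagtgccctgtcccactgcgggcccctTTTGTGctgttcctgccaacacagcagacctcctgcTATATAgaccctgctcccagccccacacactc
Crygn: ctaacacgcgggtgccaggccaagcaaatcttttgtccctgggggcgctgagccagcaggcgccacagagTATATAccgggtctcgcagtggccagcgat
Crygs: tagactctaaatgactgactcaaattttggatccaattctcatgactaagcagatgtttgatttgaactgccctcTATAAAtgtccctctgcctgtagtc

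On chromosome 1 these windows are chr1:65103364-65103463 for Cryga, chr1:65082291-65082390 for Crygb, chr1:65073533-65073632 for Crygc, chr1:65063441-65063540 for Crygd and chr1:65051164-65051263 for Cryge, all on the minus strand. The window of Crygf, on the plus strand, is chr1:65926422-65926521. Those of Crygn, chr5:24757849-24757948, and Crygs, chr16:22811411-22811510, are on the minus strand.

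All 6 clustered genes held TTTGTG and TATATA in these 100 bases. The start of TTTGTG lay 38 bases ahead of that of TATATA in Cryga and Crygb, 36 in Crygd, Cryge and Crygf, and 35 in Crygc. TTTGTG was the 1 further word of at least 6 bases common to all 6, and it was chosen after the sequences were seen. Crygn held TATATA without TTTGTG. Crygs held neither, and its TATAAA lay 25 bases before the start. Over the 250 bases upstream of each of 32851 RefSeq starts, both strands searched, 5.25% held TATATA, 15.6% TTTGTG and 12.4% TATAAA.

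Letters of further motifs were counted over the same 250 bases and both strands. ACAAT, the core word of SOX factors, was found in 4 of 8 members (Crygd, Cryge, Crygf and Crygs) and in 27.7% of all starts. TGCTGA, a word of MAF recognition elements, was found in 4 of 8 (Cryga, Crygc, Crygn and Crygs) and in 16.1% of all starts. CACCT, the core word of ZEB factors, was found in Cryge and Crygf, and in 46.0% of all starts. It was not among these letters in the Crygs window, and CACCTG, a longer word that contains CACCT, was in none of the 8 (17.2% of all starts). A match of letters describes the sequence and shows no binding.

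In the inbred wild type lens the clustered genes were among the most abundant transcripts. Levels are given as RPKM, mapped reads per kilobase of exon scaled to library depth, which allows genes of different length to be compared. Cryga was at 42999, 43327 and 38512 RPKM in the 3 libraries (mean 41613 ± 2690, SD, n = 3), ranking 2 of 7676 genes after Cryaa. Cryge, at 35186, 35532 and 33078 RPKM (34599 ± 1328), ranked 3. Both encode fibre cell gamma crystallins, and their values did not overlap: Cryga was 1.16 to 1.22 times Cryge within each library.

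Crygb followed at 19653, 20438 and 17282 RPKM (19124 ± 1643, SD, n = 3), ranking 6. Crygf was at 14648, 15589 and 13810 RPKM (14682 ± 890) and Crygd at 14152, 14867 and 13300 RPKM (14106 ± 785). Crygf and Crygd overlapped across libraries, although Crygf was 1.04 to 1.05 times Crygd within each library. Crygc, the lowest of the cluster, was at 9172, 9095 and 7823 RPKM (8697 ± 757) and ranked 11.

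The genes outside the cluster were lower. Crygn was at 3710, 3303 and 3163 RPKM (3392 ± 284, SD, n = 3), ranking 14, with Crygc 2.47 to 2.75 times higher. Crygs was at 354, 471 and 343 RPKM (389 ± 70.9), ranking 86. Cryga was thus 107 times and Crygn 8.72 times the Crygs level in RPKM means. The ranks given are also by RPKM. By reads, not divided by length, Cryga ranked 4, Cryge 6, Crygb 8, Crygc 13, Crygn 20 and Crygs 308. The spread over libraries was 3.84% to 8.71% of the mean (coefficient of variation) in the other 7 members and 18.2% in Crygs. No test was made of these levels, and with groups of 3 the smallest p of an exact two-sided permutation test is 0.1.

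**Figure D1:**
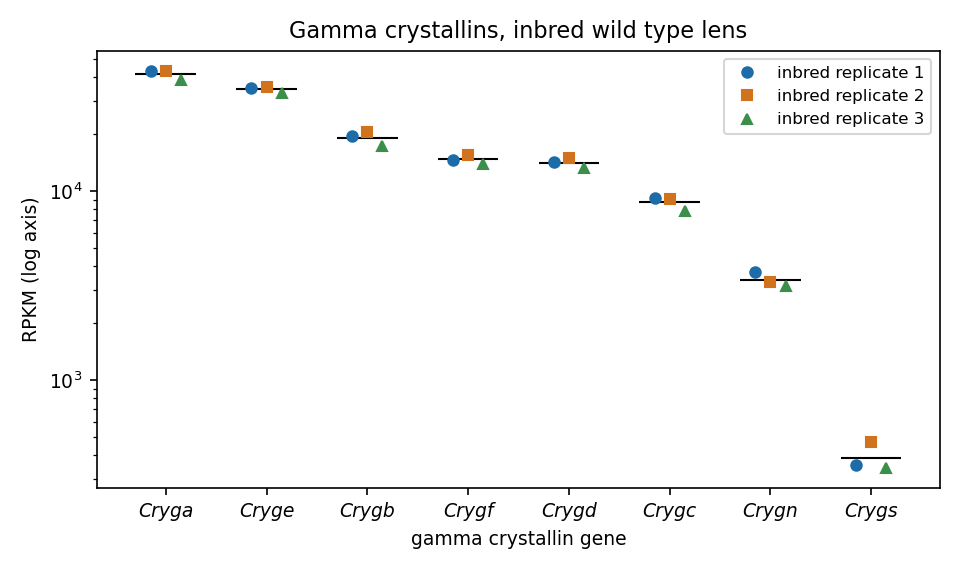
RPKM (log axis) of the 8 gamma crystallin genes in the 3 inbred wild type libraries, with symbols for replicates and a black line for the mean. Neighbours in the order do not overlap except Crygf and Crygd, and Crygs lies 8.72-fold below Crygn.

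Inbred replicate 3 gave the lowest value of all 8 members, 4.4% to 11.9% below the mean of the 3 libraries. Over all 7676 genes that library was the lowest for 23.6%. The highest value came from replicate 2 in 6 members and from replicate 1 in Crygc and Crygn. Replicate 3 also had the lowest depth, 14.1 M (mega) reads against 16.3 and 16.7 M, and its part in the lower values was not tested.

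Counted in reads, RPKM multiplied by exon length and depth, gamma crystallins took 11.9%, 12.1% and 10.8% of the reads of listed genes in the inbred libraries (mean 11.6% ± 0.69, SD, n = 3). This was 31.2% ± 0.63 of the reads of the 16 crystallin genes. The 2 alpha crystallins took 33.4% ± 0.67 and the 6 beta crystallins 35.4% ± 0.93. These shares depend on the unit: by sums of RPKM the gamma crystallins were the largest of the 3 classes, with 44.1% ± 0.67 against 29.4% ± 0.59 for alpha and 26.5% ± 0.74 for beta, and by sums of normalized values the smallest, with 24.2% ± 0.23 against 43.0% ± 0.14 and 32.8% ± 0.37. RPKM divides by the deposited exon length, which was 1.32 to 3.67 times the coding length in alpha and beta genes. In gamma genes it was 1.18 to 1.96 times, and its part in the order of the classes was not tested. Of all listed genes the gamma crystallins held 27.0% ± 0.93 by RPKM and 6.09% ± 0.067 by normalized values. The 6 clustered genes held 97.0% ± 0.15 of the gamma reads. Within the family Cryga held 30.1% ± 0.26, Cryge 24.8% ± 0.53 and Crygd 14.4% ± 0.25, while Crygn held 2.70% ± 0.18 and Crygs 0.27% ± 0.04.

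The order in the middle of the family rested on the exon length used. In GENCODE M21 each clustered gene has 3 exons and a coding sequence of 525 or 528 bases, stop codon included. The deposited exon lengths ranged from 623 bases for Crygb to 1028 for Crygd, 1.96 times its coding length. For Cryga, Crygc, Crygd, Cryge and Crygn they equalled the union of all exons annotated in GENCODE M21, which for Crygd and Cryga includes transcripts with a retained intron. All reads of each gene were then divided by its coding length, a measure added after the data were seen. By it Crygd was 1.20 to 1.28 times Crygb and 1.57 to 1.59 times Crygf within each library. Reads outside the coding sequence were counted in, which can raise Crygd more than Crygb, whose deposited length was 1.18 times its coding length. On the RPKM scale Crygd was 0.72 to 0.77 times Crygb and 0.95 to 0.97 times Crygf. Cryga, Cryge, Crygc, Crygn and Crygs kept places 1, 2, 6, 7 and 8.

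**Figure D2:**
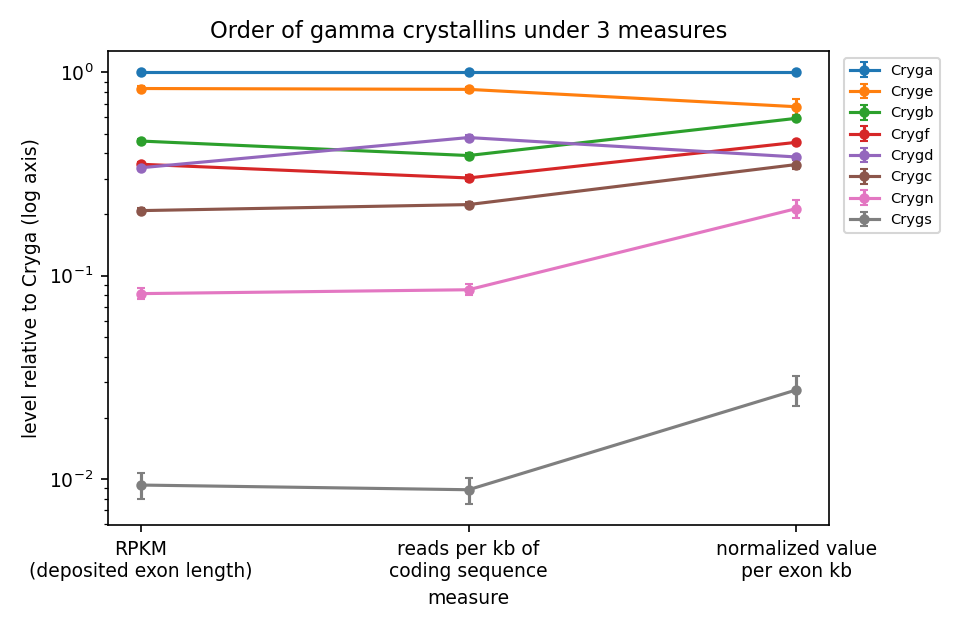
Level of each gamma crystallin relative to Cryga in the same library (log axis; mean and SD of the 3 inbred libraries) by RPKM, by reads per kilobase of coding sequence and by the authors' normalized value per kilobase of exon. Reads per coding length use all reads of the gene, also those outside the coding sequence. Crygd moves from place 5 by RPKM to place 3 by reads per coding length, and the other 2 measures give the same order.

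The clustered genes are close copies, which bears on how reads can be assigned to them. The first 90 coding bases of each, from GENCODE M21 transcripts, show this, with capitals at bases that differ from Cryge.
Cryga: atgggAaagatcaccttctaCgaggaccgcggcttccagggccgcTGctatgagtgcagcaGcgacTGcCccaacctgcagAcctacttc
Crygb: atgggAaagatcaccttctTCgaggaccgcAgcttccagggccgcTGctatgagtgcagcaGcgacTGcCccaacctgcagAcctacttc
Crygc: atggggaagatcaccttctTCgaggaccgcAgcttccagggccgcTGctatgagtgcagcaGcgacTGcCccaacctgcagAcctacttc
Crygd: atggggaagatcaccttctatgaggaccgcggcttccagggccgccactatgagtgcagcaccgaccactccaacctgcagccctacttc
Cryge: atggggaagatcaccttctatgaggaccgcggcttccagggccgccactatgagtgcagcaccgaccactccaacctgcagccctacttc
Crygf: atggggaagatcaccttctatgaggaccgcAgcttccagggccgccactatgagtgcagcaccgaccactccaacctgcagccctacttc

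Crygd did not differ from Cryge in this stretch, Crygf differed at 1 base, and Cryga, Crygb and Crygc at 9, 11 and 10. Over the whole coding sequence Cryge and Crygf were 98.1% identical, with 10 mismatches. Crygd was 91.6% identical to Cryge and 90.7% to Crygf. Cryga, Crygb and Crygc were 82.0% to 83.7% identical among themselves and 78.8% to 84.0% to the other 3. Crygs was 55.0% to 59.9% identical to the other 7 members and Crygn 55.0% to 59.1%.

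Words of 31 bases show how much of each transcript cannot be told from another gene by a short read. In Cryge 67.6% of its 31-base words occurred in transcripts of other genes, most often Crygf. In Cryga the share was 53.8%, all of it held by Gm28845, an annotated gene inside the cluster that was not in the inbred list. The share was 49.6% in Crygf, 42.7% in Crygd, 34.9% in Crygc and 31.6% in Crygb. At 75 bases it was 42.0% in Cryge, 50.1% in Cryga and 21.3% to 27.3% in the other 4. With gamma genes alone, Cryga shared 17.8% of its 31-base words and 0% of its 75-base words. The shares of Crygb to Crygf were the same when only gamma genes were counted. Crygn and Crygs shared no word of either length. No label or file header states how reads that map to several genes were treated. The split of reads among the 6 clustered genes, and between Cryga and Gm28845, is therefore uncertain. The values of Crygn and Crygs do not carry this uncertainty.

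The tables also hold a normalized expression value per gene, by a method that no label or header states. It was divided by the recovered reads of the gene and set relative to the median gene of the same library. Cryge had the lowest of these quotients in the family, 0.25 ± 0.04 (SD, n = 3), followed by Cryga at 0.30 ± 0.03, Crygd at 0.34 ± 0.03, Crygf at 0.39 ± 0.03, Crygb at 0.39 ± 0.05 and Crygc at 0.51 ± 0.04. Crygn stood at 0.79 ± 0.02 and Crygs at 0.89 ± 0.02. Of the 7676 genes 5% lay below 0.37. Among alpha and beta crystallins, 7 of 8 lay between 0.52 and 1.14. Cryba1, at 0.15, was lower than every gamma gene and shared no 31-base word. Abundant crystallins without shared words, such as Crybb1 at 0.52 and Crybb3 at 0.53, were below the median gene too. Cryaa, which ranked 1 by RPKM and shared 5.4% of its words, stood at 0.56, above Crygc. The order of the quotients matched neither that of shared sequence nor that of abundance, and the parts of both were not tested.

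**Figure D3:**
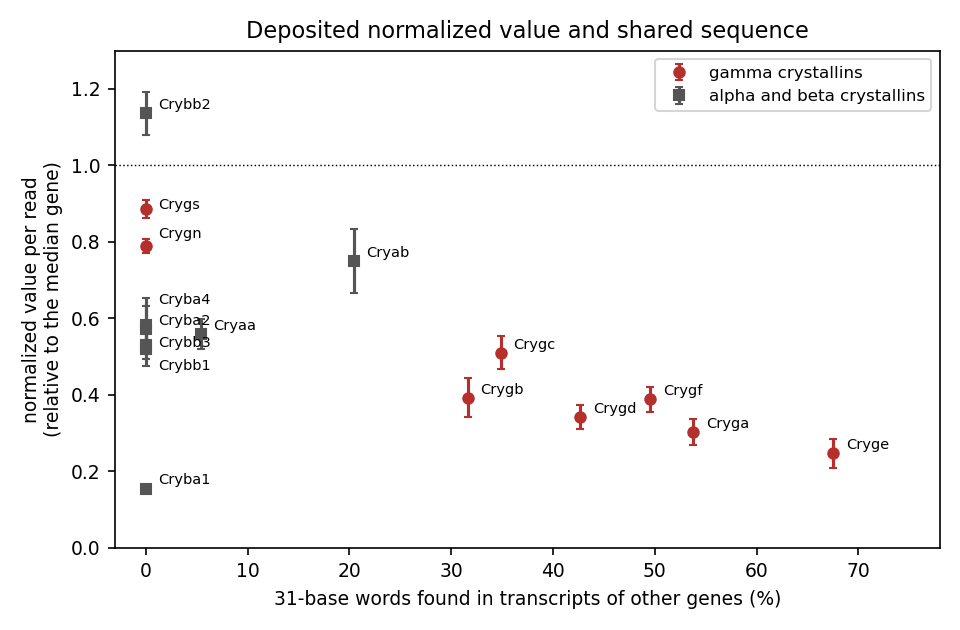
The authors' normalized value per read relative to the median gene (mean and SD of the 3 inbred libraries) against the percentage of 31-base words found in other genes, for 8 gamma (red circles) and 8 alpha and beta crystallins (grey squares). The 6 clustered gamma genes lie between 0.25 and 0.51 at 31.6% to 67.6% shared words, and Crygn and Crygs at 0.79 and 0.89 with none. Cryga is drawn at 53.8%, which is 17.8% when only gamma genes are counted.

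In the inbred normalized values Cryga, Crygb and Crygd had exactly the same value in all 3 libraries, at 225660, 114375 and 121818. So did Cryaa, Cryba2, Crybb1 and Crybb3. Other abundant genes exchanged values. Crygc and Crygf had 88739.5 and 86783.75 in replicate 1 and the reverse in replicate 2. Cryge had 135650 in replicate 1 and 159219.75 in replicates 2 and 3, values that Cryba1 had in replicates 3 and 1. The spread of all these genes over libraries cannot be read from that column. The same limit holds for the SDs of shares, ratios and quotients built on it.

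Crygs was compared across the 3 groups. The cKO and mixed wild type lenses differ in MLR10Cre, and no group carried it without the floxed alleles. Effects of Cre itself and of Sip1 loss therefore cannot be told apart. The mixed and inbred wild type lenses differ in background, floxed alleles and sequencing depth, which cannot be told apart either. The cKO and inbred lenses differ in all of these. In mixed wild type lenses Crygs stood at 370, 430 and 449 RPKM (416 ± 41.3, SD, n = 3), and it reached 3200, 3983 and 3991 RPKM in the cKO (3725 ± 454). Every cKO library was above every mixed wild type library, by 7.13-fold for the closest pair and 10.8-fold for the farthest. The ratio of means was 8.95-fold, with a log2 difference of 3.16 (SE 0.12, 95% interval 2.88 to 3.43, limma adjusted p = 1.23e-09) on the log2(RPKM + 0.5) scale. The fold moved with the scaling of the libraries, to 6.19 under quantile normalization and 4.84 under median centring, both called. These scalings used only the 190 listed genes, whose median log2 difference was itself 1.37. They cannot tell library scale from change in those genes. In reads, 62106 to 73409 per cKO library lay behind the RPKM values and 10128 to 14012 per mixed wild type library. In bulk lens RNA, a change in the number of cells that express the gene and a change in RNA per cell cannot be told apart.

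This test is a description more than independent evidence. In every one of the 190 genes the normalized means of cKO and mixed wild type differed by at least 2.50-fold, so Crygs was listed through a difference between these same libraries. Limma called 99.5% of the 190 genes, 54.2% higher and 45.3% lower in cKO, and in 100% of them the groups of 3 libraries did not overlap, so neither fact sets Crygs apart. By ratio of RPKM means Crygs was the 34th rise of the 190, and the 3rd of the 128 genes that were also in the inbred list. By log2 difference, which weighs down genes near 0 RPKM, it was the 18th rise of the 190. By level it ranked 11 of 190 in each mixed wild type library and 1 in each cKO library. Zeb2 was at 5.16, 5.96 and 6.31 RPKM in inbred wild type and has no value in the other groups here, so the knockout label was not checked against the targeted gene.

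**Figure D4:**
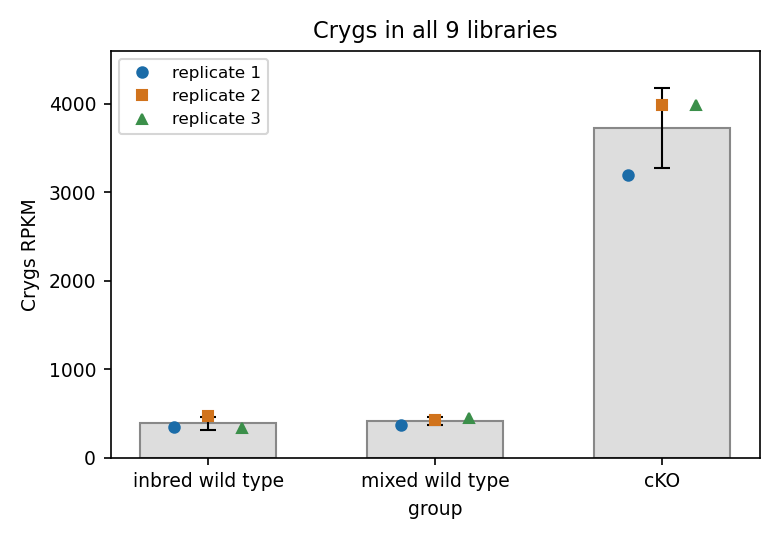
Crygs RPKM in all 9 libraries, with bars for the group mean, error bars for the SD and symbols for replicates. The 3 cKO libraries lie at 3200 to 3991 RPKM and the 6 wild type libraries at 343 to 471.

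Between the wild types Crygs did not pass the test. The mixed wild type values, 370 to 449 RPKM, lay within the inbred range of 343 to 471. The ratio of means was 1.07, with a log2 difference of 0.11 (SE 0.14, limma adjusted p = 0.529). The 95% interval of the fold, 0.87 to 1.33, leaves room for a moderate difference, and the sign turned under quantile normalization (-0.21, limma adjusted p = 0.0864) and median centring (-0.040, 0.822). Both scalings used only the 128 genes in both lists, so they cannot tell library scale from change in those genes. Limma called 49.2% of the 128 genes in this comparison, 30.5% higher and 18.8% lower in mixed wild type, and in 57% the groups did not overlap. In the authors' normalized values Crygs was called higher in mixed wild type (log2 difference 0.52, limma adjusted p = 0.00806), on a column whose normalization no label or header states.

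Against inbred wild type, cKO lenses had 9.58-fold more Crygs (log2 difference 3.27, SE 0.14, limma adjusted p = 2.23e-11), from 6.80-fold for the closest pair of libraries to 11.6-fold for the farthest. Quantile normalization over the 128 listed genes alone gave 5.15-fold, also called. In this comparison limma called 93.8% of the 128 genes, with 32.8% above inbred wild type and 60.9% below it, and for 93.8% the groups did not overlap. Crygs had the 2nd largest log2 rise of the 128. This comparison shares its cKO libraries with the first. Set beside the family in the inbred lens, the cKO level of Crygs, 3725 RPKM, was near the 3392 RPKM of Crygn, while Crygc was 2.33 times and Cryga 11.2 times higher than it. The levels of these genes in cKO lenses were not analysed here.

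Some markers of other cell types were also among the 190 genes listed for cKO and mixed wild type, of 7738 listed in any group. In each of these 190 the normalized means of the groups differed at least 2.50-fold, so any listed marker differed by selection. Of 8 surface ectoderm and keratinocyte markers 3 were listed (Krt8, Krt18 and Dsp), with a summed level of 11.0 to 14.9 RPKM in cKO against 0.76 to 1.22 in mixed wild type. Of 7 red cell markers 2 were listed (Hba-x and Hba-a2), at 84.6 to 144 RPKM in cKO against 398 to 538. Single markers of other cell types were listed too. Tek, the 1 of 5 endothelial markers, was at 7.84 to 8.61 RPKM in cKO against 2.51 to 2.82, and Tnnt1, the 1 of 4 muscle markers, at 9.77 to 10.4 against 0.14 to 0.31. Elavl4, the 1 of 4 neuronal markers, was at 0.39 to 0.67 RPKM in cKO against 2.69 to 3.18. No marker of retina, pigment cells, periocular mesenchyme or macrophages was in these tables, nor any of the 7 lens fibre and 6 lens epithelium markers. Depth was 25.9 to 27.4 M reads in cKO and 38.7 to 44.1 M in mixed wild type. The part of these in the Crygs result was not tested.

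Of the 18 fibre cell genes drawn up for comparison, 17 were listed in inbred wild type and 4 in the cKO and mixed wild type tables. Lgsn, a glutamine synthetase-like gene of the lens, rose from 0.064 ± 0.024 to 3.63 ± 0.77 RPKM (SD, n = 3) and was called by limma, as were the next 3. It is not in the inbred list and was named after its values were seen. Against mixed wild type, Dnase2b, the nuclease that clears fibre cell DNA, fell 3.24-fold, the apoptosis inhibitor gene Birc7 fell 4.08-fold and Lctl fell 2.24-fold. These 3 genes were also called higher in mixed than in inbred wild type, by 1.66-fold, 1.34-fold and 1.96-fold, calls that quantile normalization ended for Dnase2b (limma adjusted p = 0.134) and Birc7 (0.111). Against inbred wild type, Dnase2b was called 1.95-fold and Birc7 3.05-fold lower in cKO, while Lctl overlapped (0.88-fold, limma adjusted p = 0.202) and was called lower under median centring alone of the 3 scalings tried (0.00291). The cKO against mixed wild type median log2 difference of the 4 was -1.40, against 1.37 over all 190 genes, and all 4 were listed for a difference. None of the 8 alpha and beta crystallins and none of 18 regulators of crystallin genes was in these tables. In the inbred list 15 of the 18 regulators were present, among them Maf, a leucine zipper activator of crystallin genes, at 153 ± 11.7 RPKM (SD, n = 3), the heat shock factor gene Hsf4 at 101 ± 3.07, the homeobox gene Prox1, required for fibre elongation, at 97.6 ± 15.4, and Pax6 at 11.3 ± 0.40. Sox1 and Sox2 were not in that list, whose lowest mean was 2 RPKM.

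Genes with the most similar course over the 9 libraries were ranked by Pearson's r of log2(RPKM + 0.5) with Crygs over the 128 genes in all tables. This describes a step between 3 cKO and 6 wild type libraries, which most of these genes share through their listing. The highest were Gcg, the glucagon gene (r = 0.995), Fam132a (0.993), Gmpr, a guanosine monophosphate reductase (0.992), the glutathione transferase gene Gsta4 (0.991) and the ubiquitin hydrolase gene Uchl1 (0.991). Gcg was at 25.8 ± 2.60, 26.5 ± 1.64 and 153 ± 5.27 RPKM in inbred wild type, mixed wild type and cKO (SD, n = 3 each). Uchl1, at 180 ± 14.7, 147 ± 9.18 and 2086 ± 138 RPKM, had the larger step. Unlike Crygs, Uchl1 was called lower in mixed than in inbred wild type (log2 difference -0.29, limma adjusted p = 0.0332), with no overlap, although not in the authors' normalized values (0.089, limma adjusted p = 0.559). For Crygs the scale of those values differed between the inbred and the other libraries. The lowest r belonged to Wdr41 (-0.993), at 13.6 ± 0.53, 14.4 ± 0.18 and 5.0 ± 0.35 RPKM.

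**Figure D5:**
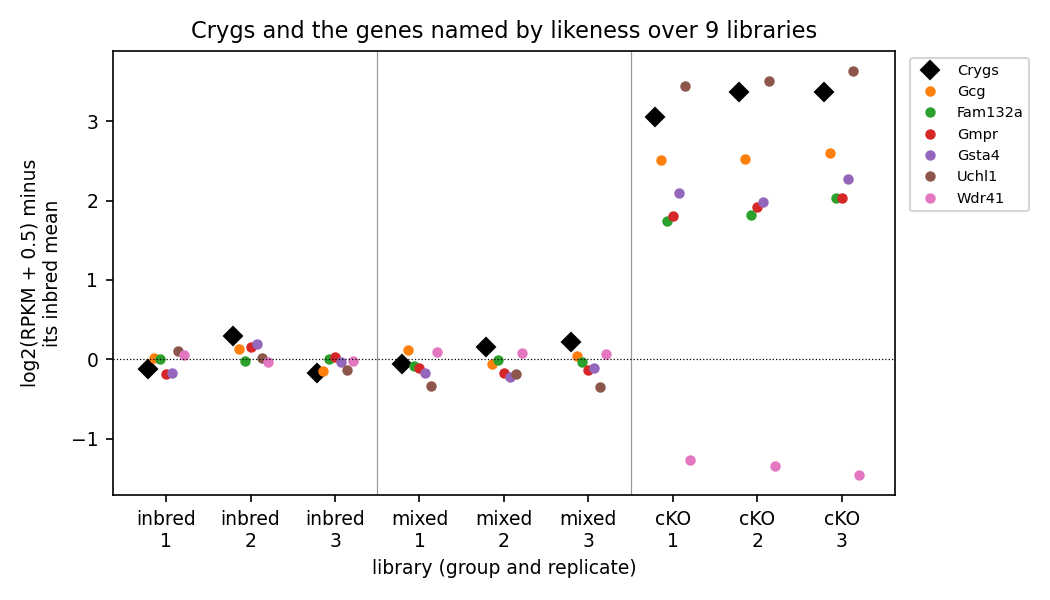
Log2(RPKM + 0.5) minus the inbred mean for Crygs (black diamonds), the 5 genes with the highest Pearson r to it and Wdr41, with the lowest, in each of 9 libraries. The cKO points stand apart from all wild type points, above for 6 genes and below for Wdr41, and the mixed wild type points of Uchl1 lie below its inbred points.

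None of the genes that flank the family was in the cKO and mixed wild type tables. Of the 3 protein-coding neighbours on each side of Crygs in GENCODE M21 order, 5 of 6 were listed in inbred wild type: Etv5, a FGF-responsive ETS factor gene, at 30.0 ± 3.52 RPKM (SD, n = 3), the chaperone gene Dnajb11 at 30.0 ± 0.83, the splicing factor gene Tra2b at 16.1 ± 0.27, Tbccd1 at 4.81 ± 0.08 and Dgkg at 3.59 ± 0.68. Crygs stood above each of them. Around Crygn 4 of 6 were listed, the highest being Prkag2 at 19.0 ± 0.88 RPKM. Around and inside the chromosome 1 cluster 2 of 11 were listed, Idh1 (isocitrate dehydrogenase) at 40.4 ± 0.55 and Rpe at 6.53 ± 0.60 RPKM, against 8697 RPKM or more for the 6 gamma genes there.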

How the data were processed

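Per the file headers, the authors deposited RPKM values and normalized expression values (a score of unstated unit) per gene and library, with exon lengths in the inbred tables. The submitters' processing notes name CASAVA 1.8.2. Aligner, build and counting rule: not given in the sources used here. Symbols repeated within a table (24 rows) were left out. Depth was recovered from RPKM times exon length, which fell on whole reads for 100% of the low values used (tolerance 0.1 reads): inbred wild type libraries had 14.1 to 16.7 M reads, those of cKO 25.9 to 27.4 M and those of mixed wild type 38.7 to 44.1 M. Libraries of a group are separate samples per the labels and differed by more than sampling noise.

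Log2(RPKM + 0.5) values of 2 groups at a time were fitted in limma 3.58.1 (R 4.3.3), allowing for a mean-variance trend. Listed genes averaging 1 RPKM or more over the 6 libraries entered, with Benjamini-Hochberg adjustment over all of them and a threshold of 0.05. The script was tested on simulated data. Python 3.11.15 (numpy 2.4.6, pandas 2.3.3, scipy 1.17.1) did the rest. Sequences came from RefSeq (GRCm38.p6; 8 of 8 members matched) and GENCODE M21. Members and lists were chosen with earlier results of these data known. Beyond the members, genes were named from lists of alpha and beta crystallins, crystallin regulators (at most 6 with values), fibre genes and cell type markers, by correlation with Crygs (5 highest, 1 lowest) and as chromosomal neighbours (3 per side).

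Alternatives were pseudocounts, filters, normalizations, the authors' normalized values, limma without trend, a joint fit, the replicate block, each library left out, and other lengths.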

Additional observations from a re-analysis of the deposited data

How the results depend on the processing

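Over 16 alternatives each, Crygs remained called higher in cKO against mixed wild type (log2 difference 2.27 to 3.26) and against inbred wild type (2.36 to 3.70). Crygs was listed through a difference of at least 2.50-fold between the same cKO and mixed wild type libraries. The main analysis called 99.5% of the 190 genes for cKO against mixed and 93.8% of the 128 for cKO against inbred wild type. Remaining called therefore adds little independent evidence and does not set Crygs apart. Between the wild types Crygs was not called in the main analysis (0.11), turned negative without a call under quantile normalization (-0.21, limma adjusted p = 0.0864) and median centring (-0.040, 0.822), and was called with the authors' normalized values (0.52, 0.00806). Those values also gave the 3.70, and for Crygs their scale differed between the inbred and the other libraries. The limma adjusted p of Crygs between the wild types ranged from 0.00806 to 0.916 over these alternatives. Centring each library on its median lowered the Crygs log2 difference by 0.88 for cKO against mixed, 0.35 for cKO against inbred and 0.15 for mixed against inbred wild type. The median of the log2 differences of all listed genes, without centring, was 1.37, -0.57 and 0.083. Centring and quantile normalization used only listed genes, so they cannot tell library scale from change in those genes. Leaving out each library gave 3.08 to 3.26, 3.18 to 3.41 and, between the wild types, 0.02 to 0.25.

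Same-numbered libraries did not deviate together more than others: correlations over genes were -0.524 to 0.239, against -0.458 to 0.654 for libraries of unlike number. The deviations were taken from means of 3 libraries, so this check cannot exclude a pairing. No pairing was used in the main analysis. With the replicate number as a block the log2 differences stayed at 3.16, 0.11 and 3.27 with the same calls, and 189, 47 and 120 genes were called against 189, 63 and 120.

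The gamma share of listed reads, 11.6%, became 27.0% with sums of RPKM and 6.09% with sums of normalized values, and ranged from 11.4% to 12.0% with a library left out. The share of crystallin reads, 31.2%, became 44.1% and 24.2%, and ranged from 30.8% to 31.4%. All 48 alternative counts of called genes stayed within 1.5 times the main count. With 3 libraries per group, differences of the size of the Crygs spread could not be resolved.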
